A study of Mus musculus with 14 samples.

Results

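The AP-1 transcription factors followed here are 10 genes, taken by gene symbol from the rows of the count files: the FOS family (Fos, Fosb, Fosl1 and Fosl2), the JUN family (Jun, Junb and Jund), Atf3, Maff and Batf. Each symbol had 1 row among the 55357 genes of the files, and all 10 were among the 12915 genes that passed the low-count filter. All 10 were higher in livers with acute liver failure than in control livers, and for none of them did any model library overlap any control library. The rises went from about 4-fold for Jund (log2 fold change 2.01, SE 0.28) to a log2 fold change of 7.84 (SE 0.44) for Atf3, and Fosl1, with no read in any control, was at least 297-fold higher. Fos, Fosb, Fosl1, Atf3 and Batf were at or under 1.16 CPM in every control and could pass the filter only through the model, so they could hardly be called lower, and the members' count and median are given as a description.

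In the files, the FOS family is Fos (ENSMUSG00000021250.14, chromosome 12), Fosb (ENSMUSG00000003545.4, chromosome 7), Fosl1 (ENSMUSG00000024912.7, chromosome 19) and Fosl2 (ENSMUSG00000029135.11, chromosome 5). The JUN family is Jun (ENSMUSG00000052684.5, chromosome 4), Junb (ENSMUSG00000052837.8, chromosome 8) and Jund (ENSMUSG00000071076.9, chromosome 8). The others are Atf3 (ENSMUSG00000026628.14, chromosome 1), Maff (ENSMUSG00000042622.15, chromosome 15) and Batf (ENSMUSG00000034266.7, chromosome 12).

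AP-1 is a dimer of basic leucine zipper (bZIP) proteins. JUN proteins pair with each other or with FOS proteins, FOS proteins need a partner, and ATF, MAF and BATF proteins join as further partners that shift which DNA sites are bound. The classic site is the TPA response element, TGACTCA, and dimers with ATF proteins also bind the related cyclic AMP response element, TGACGTCA. Fos, Fosb, Jun, Junb and Atf3 are known as immediate early genes, transcribed within minutes of a signal through MAP kinases and serum response factor, whereas Jund is described as steadily expressed. In liver, these genes are known for their early rise after injury, endotoxin or partial removal of the organ.

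The series measured polyadenylated RNA of whole liver from C57BL/6 male mice aged 5 to 6 weeks. The 8 model libraries came from mice given lipopolysaccharide (LPS, a component of bacterial cell walls) at 10 µg/kg and D-galactosamine (D-GalN), which is toxic to hepatocytes, at 300 mg/kg, both into the peritoneum. The 6 control libraries came from mice given saline, which therefore differ from the model in both agents at once. All livers were collected 24 h after injection, a single time point, and the labels do not say whether every sample is its own animal, so p-values measure only the spread between the samples given.

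Promoter sequences were looked up because the members rose together and these genes are known to be controlled through elements close to their start. RefSeq promoters (build GRCm38.p6) were found for 9 of the 10 members, 11 promoters in all, since Maff has several starts; Fosl1 had no entry. The last 100 bases before the start are printed for the 5 promoters in which a cyclic AMP response element or a close relative of it lay nearest the start. Capitals mark TGACGTCA, its variant TGACATCA, the shorter TGACGT or its complement ACGTCA, and for Fos also the TATA box; in the last Maff promoter they also mark a kappaB site.
Fos, chr12:85473790-85473889, plus strand: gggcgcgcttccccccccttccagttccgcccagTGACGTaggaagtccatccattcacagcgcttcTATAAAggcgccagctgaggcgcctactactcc
Jun, chr4:95052223-95052322, minus strand: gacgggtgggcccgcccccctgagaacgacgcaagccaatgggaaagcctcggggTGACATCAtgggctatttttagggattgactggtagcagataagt
Atf3, chr1:191183334-191183433, minus strand: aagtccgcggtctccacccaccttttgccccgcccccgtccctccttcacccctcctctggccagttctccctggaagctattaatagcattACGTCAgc
Maff, start 2, chr15:79347420-79347519, plus strand: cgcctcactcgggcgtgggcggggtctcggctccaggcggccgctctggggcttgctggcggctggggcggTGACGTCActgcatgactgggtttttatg
Maff, start 3, chr15:79348302-79348401, plus strand: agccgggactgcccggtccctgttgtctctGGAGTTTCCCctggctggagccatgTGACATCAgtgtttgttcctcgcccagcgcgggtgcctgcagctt

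In the Jun promoter and in the third Maff promoter, TGACATCA lay at the same place, 45 to 38 bases before the start. In the second Maff promoter the full TGACGTCA lay 29 to 22 bases before the start, and in Atf3 the shorter ACGTCA lay 8 to 3 bases before it. In Fos the TATA box lay 33 to 28 bases and the shorter element 66 to 61 bases before the start.

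Over windows of 250 bases before the start, searched on both strands, TGACATCA was in promoters of 2 of the 9 members and in 2.93% of the 32851 promoters of the table. TGACGTCA was in promoters of 1 member and 1.55% of all, and TGACTCA in 0 members and 4.46% of all. The core ACGTCA, which overlaps TGACGTCA and was chosen after the sequences were seen, was in promoters of 4 members (Fos, Atf3, Maff and Batf) and in 6.47% of all. A kappaB site, the binding motif of NF-kB, was in promoters of 4 members (Fos, Fosb, Fosl2 and Maff) and in 3.9% of all. The CArG box of serum response factor and the interferon-type element TTCNNNGAA were in 0 members and in 1.47% and 7.02% of all promoters. A member was counted if any of its promoters held the motif, and Maff has several, whereas the percentages are per promoter. These are matches of letters in a short window and not measured binding. Elements more than 250 bases before the start were not searched for, so 0 members does not mean that these genes lack the element.

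Reads counted in genes numbered 10329469 to 16639972 per model library and 7914120 to 14463540 per control, and no pair of libraries within a group agreed within sampling noise. Model 3 and model 4 stood apart in RNA makeup, with 6.67% and 4.89% of counts in ribosomal RNA rows where the remaining 6 had 1.38% to 2.89%. Their mitochondrial share was also the highest, at 20.8% and 14.4%, with 6.46% to 11.3% in the other 6 and 6.18% to 8.57% in the controls. Mitochondrial ribosomal RNA counts in both shares, so they are not separate measures. In control 2, ribosomal RNA rows held 6.94% of counts, against 0.435% to 1.97% in the other controls. Values per library are counts scaled to library size (CPM) with TMM factors. In whole tissue, fewer cells of a type and less RNA per cell cannot be told apart. The hepatocyte markers summed to between 51190 and 73107 CPM in the controls and between 78242 and 89834 CPM in the model. Alb was the largest part, at 29439 ± 10093 CPM in control and 52287 ± 8090 CPM in model, so the sums mainly follow Alb. Of the rest, Apoa1 and Ttr had lower means in the model, and Tat, Cps1, Ass1 and Ahsg had higher ones.

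In the comparison of model with control, 26.6% of the genes tested were called higher and 21.3% lower at an adjusted p under 0.05 by edgeR's quasi-likelihood test. Group ranges that did not overlap, with the model above, were found for 14.6% of genes, with the model below for 8.63%, and 5.85% were called with a log2 fold change of at least 3. All 10 members were called higher with ranges that did not overlap, and 9 of them, all but Jund, had a log2 fold change of at least 3. The median log2 fold change of the members was 5.10, beside 0.0099 over all genes tested.

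**Figure D1:**
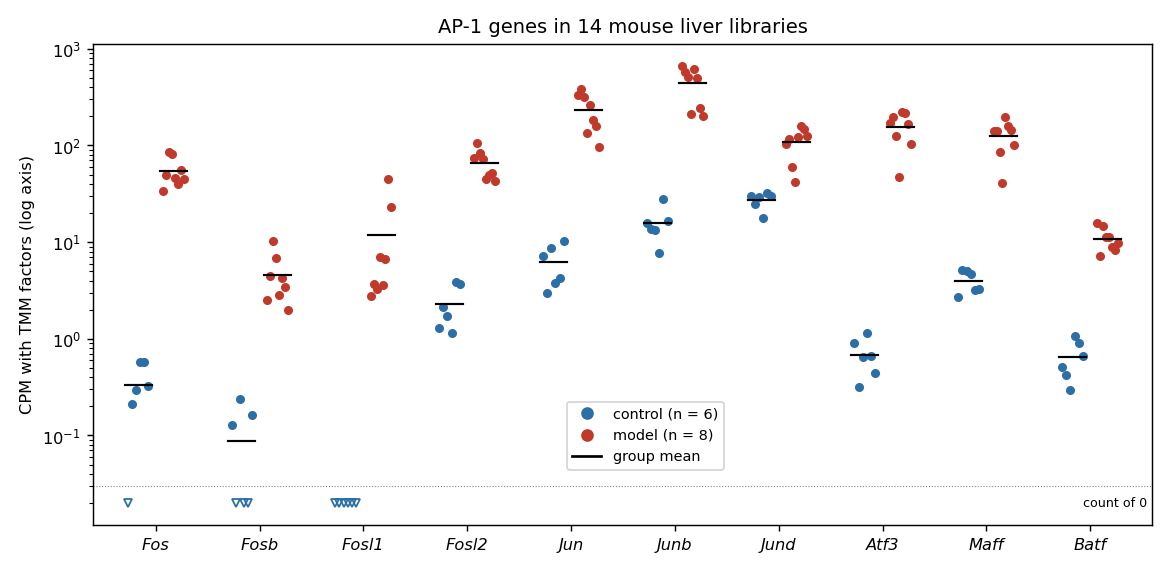
Level of the 10 AP-1 genes in each of the 14 libraries, in CPM with TMM factors on a log axis; points are libraries, bars are group means, and open triangles under the dotted line are libraries with a count of 0. In every gene all 8 model points sit above all 6 control points, with the smallest gap for Jund.

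Fos, the founding FOS protein, was near the limit of detection in the controls and was among the strongest risers. It ranged from 34.1 CPM (model 1) over a median of 47.8 to 85.7 CPM (model 3) in the model. In the controls it ranged from 0 over 0.312 to 0.579 CPM, which is 26 reads in all 6 libraries together. The lowest model library was thus 59.0 times the highest control. The log2 fold change was 7.27 (SE 0.41, edgeR adjusted p = 2.63e-10), the 86th largest rise of the 12915 genes. Model 3 and model 4, at 85.7 and 82.1 CPM, were the highest libraries, and the other 6 lay between 34.1 and 55.4 CPM.

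Fosb, a close relative of Fos with a similar induction, was a scarce transcript in both groups. It ran from 2.00 CPM in model 8 over a median of 3.85 to 10.3 CPM in model 3, against 8 reads in all controls together, 3 of which had none. Its log2 fold change was 5.35 (SE 0.60, edgeR adjusted p = 1.01e-06). As for Fos, model 3 and model 4 were its highest libraries.

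Fosl1 encodes FRA-1, a FOS protein known to rise later than Fos and to depend on AP-1 itself for its transcription. It had no read in any of the 6 controls, and its counts in model 1 to model 8 were 24, 55, 31, 93, 37, 86, 757 and 335. Scaled to CPM, that was 45.1 CPM in model 7 and 23.1 CPM in model 8, and between 2.78 and 7.02 CPM in the other 6. Against a floor of 3 counts over all controls, the rise was at least 297-fold, and at least 113-fold without model 7 and model 8. The edgeR log2 fold change of 10.23 (SE 1.46, adjusted p = 8.17e-05) rests on counts of 0 in 1 group; it was 9.47 without model 7, 8.80 without model 7 and model 8, and 7.47 with limma-voom. Fosl1 exons overlap those of Ccdc85b on the other strand in the annotation. Ccdc85b stood at 10.7 CPM (model 7) and 9.86 CPM (model 8), at 2.61 to 5.32 CPM in the other model libraries, and at 5.47 to 15.7 CPM in the controls, where Fosl1 had no reads.

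Fosl2 encodes FRA-2, and it had the highest mean level per exonic length of the FOS family in the controls. It ranged from 43.1 CPM (model 8) over a median of 62.3 to 106 CPM (model 2) in the model, and from 1.16 over 1.92 to 3.87 CPM in the controls. Its log2 fold change was 4.80 (SE 0.35, edgeR adjusted p = 5.09e-09). The highest libraries were model 1 to model 4, all above 72 CPM, and the other 4 lay at or under 52.3 CPM.

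Jun, the central AP-1 protein and a substrate of the JNK kinases, went from a control mean of 6.18 ± 2.94 CPM (SD, n = 6) to a model mean of 234 ± 105 CPM (SD, n = 8). The model libraries ran from 95.8 CPM (model 8) over a median of 223 to 384 CPM (model 2), and the highest control was at 10.2 CPM. The log2 fold change was 5.23 (SE 0.42, edgeR adjusted p = 1.71e-08). Jun shares exons on the other strand with Junos, which was near 1 CPM in both groups, at 0.939 ± 0.645 CPM (SD, n = 8) for the model and 1.09 ± 0.734 CPM (SD, n = 6) for the controls.

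Junb, a JUN protein that competes with Jun for partners, had the highest mean level per exonic length of all members in the model. It ranged from 200.1 CPM (model 8) over a median of 504 to 667 CPM (model 1), and from 7.72 over 14.8 to 28.3 CPM in the controls. The model values fell apart into 3 libraries between 200.1 and 244 CPM (model 4, model 7 and model 8) and 5 between 494 and 667 CPM. The log2 fold change was 4.79 (SE 0.40, edgeR adjusted p = 2.57e-08). Prdx2, which overlaps it on the other strand, was at 152 ± 66.3 CPM in model and 199.9 ± 88.8 CPM in control, with no call (log2 fold change -0.40, edgeR adjusted p = 0.332).

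Jund rose least of the members. It ranged from 42.0 CPM (model 4) over a median of 120.0 to 161 CPM (model 6) in the model, and from 17.7 over 29.5 to 32.1 CPM in the controls. The lowest model library was 1.31 times the highest control, so the ranges came close without meeting. The log2 fold change was 2.01 (SE 0.28, edgeR adjusted p = 1.31e-05), the 1363rd largest rise. Its exons overlap Gm11175 on the other strand, which was under 0.34 CPM in every library. Model 3 and model 4 were its lowest libraries at 60.2 and 42.0 CPM, the reverse of their place for Fos and Fosb, and the remaining 6 lay at or above 103 CPM.

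Atf3, a stress-induced ATF protein that represses many inflammatory genes, had the largest fold change of the members that were read in the controls. It ranged from 47.6 CPM (model 4) over a median of 169 to 224 CPM (model 5), against 0.318 to 1.16 CPM in the controls. The lowest model library was 41.1 times the highest control. The log2 fold change was 7.84 (SE 0.44, edgeR adjusted p = 2.42e-10), the 60th largest rise.

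Maff, a small MAF protein that lacks a transactivation domain and joins other bZIP proteins, followed Atf3 library by library. It ranged from 41.0 CPM (model 4) over a median of 142 to 196 CPM (model 5), and from 2.70 over 4.01 to 5.09 CPM in the controls (log2 fold change 4.97, SE 0.34, edgeR adjusted p = 2.93e-09). The same libraries were thus the lowest and the highest for both genes.

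Batf, known mainly from lymphocytes and dendritic cells, where it pairs with JUN proteins and IRF factors, was scarce but steady. Its model libraries ran from 7.22 CPM (model 2) over a median of 10.6 to 15.7 CPM (model 1), a 2.18-fold span that was the narrowest of the 10 members; the widest was 16.2-fold for Fosl1. In the controls it ran from 0.296 over 0.585 to 1.06 CPM. The log2 fold change was 4.07 (SE 0.31, edgeR adjusted p = 1.02e-08).

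**Figure D2:**
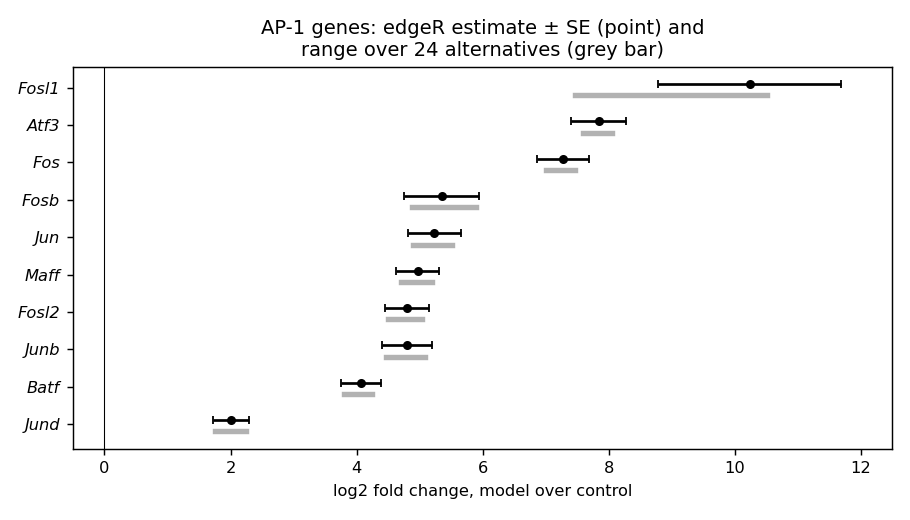
Log2 fold change of each member, model over control, from edgeR (points, with the standard error as bars), and the range of the estimate over 24 alternative analyses (grey bars). All estimates and ranges lie above 0, from 1.76 at the lowest for Jund to 10.51 at the highest for Fosl1, whose range is the widest.

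The members' levels were put on a common scale by dividing CPM by exonic length in kilobases. On that scale Jund led in the controls at 16.3 ± 3.16 CPM per kb (SD, n = 6), followed by Junb at 6.89 ± 2.97, Jun at 1.94 ± 0.923 and Maff at 1.55 ± 0.409. Batf, Atf3, Fosl2 and Fos followed between 0.457 and 0.141 CPM per kb, with neighbours inside each other's spread, then Fosb at 0.0141 and Fosl1 with no reads. In the model Junb led at 191 ± 83.4 CPM per kb (SD, n = 8). Jun at 73.4 ± 32.9, Atf3 at 72.6 ± 28.2, Jund at 65.7 ± 24.3 and Maff at 48.6 ± 18.5 came next and did not differ beyond their spread. Fos stood at 23.3 ± 8.10, then Batf at 7.75 ± 2.13, Fosl2 at 6.79 ± 2.30 and Fosl1 at 5.86 ± 7.38, which overlapped, and Fosb was lowest at 0.736 ± 0.443.

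The makeup of both families therefore differed between the groups. Jund made up 58.6% to 70.0% of JUN family RNA per kb in the controls and 10.1% to 38.8% in the model. Junb went the other way, from 22.1% to 37.3% in the controls to 43.5% to 63.4% in the model, and Jun from 4.08% to 11.3% to 15.7% to 27.6%. None of these ranges overlapped.

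Within the FOS family, Fosl2 made up 32.7% to 86.6% in the controls and 10.4% to 32.2% in the model, so the ranges nearly met. Fos made up 0% to 67.3% in the controls, where shares rest on few reads, and 45.6% to 75.4% in the model. Fosl1 was at 0% in the controls, at 42.9% and 32.0% in model 7 and model 8, and between 3.36% and 12.8% in the other model libraries. The summed JUN family was 41.3 to 176 times the summed FOS family per kb in the controls and 3.41 to 19.0 times in the model, lowest in model 4. The control ratios rest on FOS sums of only 0.153 to 0.645 CPM per kb. The 176 is control 1, where Fos had 0 reads and Fosl2 had 10.

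**Figure D3:**
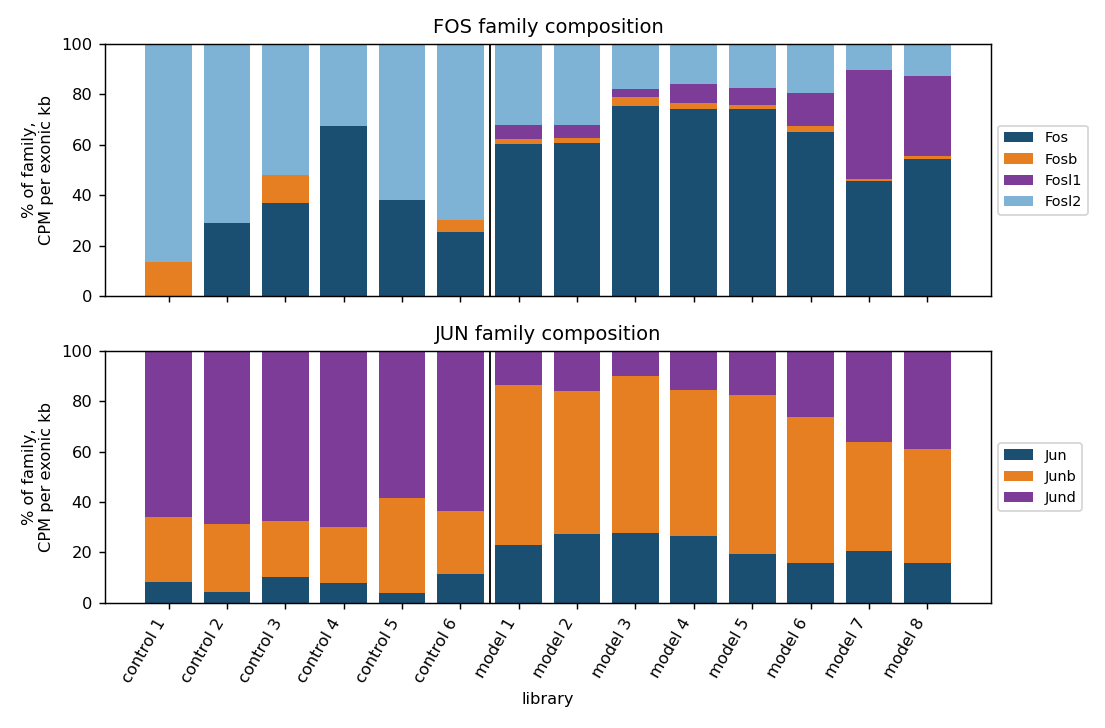
Share of each member in the FOS family (top) and the JUN family (bottom), in percent of the family's summed CPM per exonic kb, with 1 bar per library and the controls left of the line. Jund holds over 58% of the JUN family in every control and under 39% in every model library, and Fosl1 is widest in model 7 and model 8.

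The shift within families was tested on ratios of counts inside a library, which do not depend on scaling. For 5 pairs, each remaining member of a family over Fosl2 or Jund, the log2 ratio of count + 0.5 was compared with a two-sided exact permutation test over all 3003 ways to assign 8 and 6 libraries, adjusted over the 5 pairs. Jun over Jund went from -2.25 ± 0.60 in control (SD, n = 6) to 1.07 ± 0.98 in model (SD, n = 8), a difference of 3.31 (exact p = 0.000333, the smallest this test can give, adjusted p = 0.00167). Junb over Jund differed by 2.83 (exact permutation adjusted p = 0.00167), and the ranges of both ratios did not overlap between groups.

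Fosl2 itself rose about as much as Junb, so a ratio to it compares a pair of rising genes. Fos over Fosl2 differed by 2.54 (exact permutation adjusted p = 0.00167), from -2.81 ± 1.15 to -0.27 ± 0.55, with overlapping ranges. This difference rests on the 26 control reads of Fos, 0 to 7 per library, and was 2.30 with a pseudocount of 1. Because Fos could pass the low-count filter only through the model, the difference is given as a description. Fosb over Fosl2 differed by 0.45 (exact permutation p = 0.464), which did not pass, and its sign turned to -0.13 with a pseudocount of 1. For Fosl1, which had no reads in the controls, the control ratio is set by the pseudocount and the depth: its difference was 2.51 with 0.5 and 1.56 with 1, and nothing is read from its test.

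Across the 8 model libraries the members did not rise and fall as 1 block. Of 45 pairs of members, 23 had a positive Pearson r of log2 CPM, 10 had an unadjusted exact permutation p under 0.05, and 2 passed after adjustment. Atf3 and Maff had r = 0.97 (exact permutation p = 0.000992, adjusted p = 0.0285; Spearman rho 0.90, p = 0.00456, adjusted p = 0.161), and r = 0.94 without model 4 and model 8, the libraries farthest from the median of Atf3. Jun and Junb had r = 0.90 (exact permutation p = 0.00126, adjusted p = 0.0285; rho 0.88, p = 0.00724, adjusted p = 0.161), and r = 0.89 without model 2 and model 8. No pair passed by rho after adjustment.

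Several pairs that looked close rested on a pair of libraries. Fos and Fosb had r = 0.82 (exact permutation p = 0.0154, adjusted p = 0.134; rho 0.76, p = 0.0368, adjusted p = 0.295) and r = 0.21 without model 3 and model 4. Jund and Maff had r = 0.88 (exact permutation p = 0.00848, adjusted p = 0.127; rho 0.74, p = 0.0458, adjusted p = 0.295) and r = 0.14 without the same libraries. Fosl1 ran against Junb (r = -0.81, exact permutation p = 0.0150, adjusted p = 0.134; rho -0.86, p = 0.0107, adjusted p = 0.161) and kept r = -0.76 without model 7 and model 8. None of these 3 passed after adjustment.

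**Figure D4:**
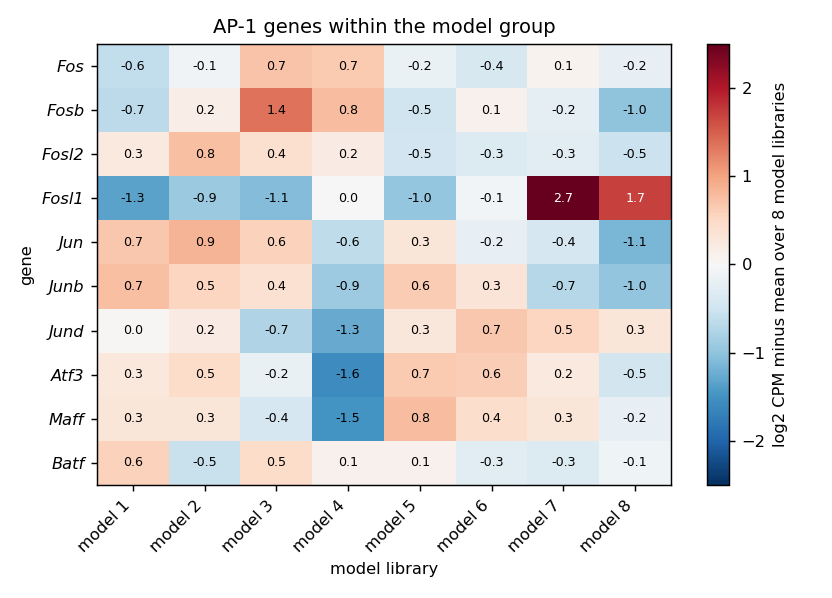
Log2 CPM of each member in each of the 8 model libraries minus the member's mean over those libraries; red is above and blue below the mean, with the value in each cell. Fosl1 stands out in model 7 and model 8, Fos and Fosb are highest in model 3 and model 4, and Atf3 and Maff share their lowest library, model 4.

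By position, the members split into groups of libraries. Fos and Fosb were highest in model 3 and model 4, a pattern shown by 6.25% of all genes tested. Atf3, Maff and Jund were lowest in model 4, as were 14.2% of genes, and Fosb, Fosl2, Jun and Junb were lowest in model 8, as were 15.8%. Fosl1 alone of the members had model 7 and model 8 as its highest libraries, as did 21.9% of genes. Model 3 and model 4 also held more ribosomal and mitochondrial RNA than the other 6, and its part in these positions was not tested. Without them all 10 members were still called higher, with a median log2 fold change of 5.04.

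Upstream of AP-1, the counts of MAP kinase genes were close to those of all genes. Of 19 tested, 6 were higher, 3 lower and 10 passed in neither direction, beside 26.6% higher and 21.3% lower of all genes, with a median log2 fold change of 0.09; without model 3 and model 4 the counts were 9 and 2, and with a length and GC offset 6 and 5. Map3k8 (TPL2, which carries the LPS signal to ERK) rose from 1.78 ± 0.835 CPM (SD, n = 6) to 17.1 ± 3.07 CPM (SD, n = 8), a log2 fold change of 3.24 (SE 0.30). Map3k1, a kinase upstream of JNK, rose by 2.03 (SE 0.40) and Rps6ka3, the kinase RSK2, by 1.95 (SE 0.33) on the log2 scale.

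Map2k6, which activates p38, fell by 1.91 on the log2 scale (SE 0.36) and Rps6ka1, the kinase RSK1, fell by 1.06 (SE 0.25). Mapk14, the p38 alpha kinase itself, was lower by a log2 fold change of -0.73 (SE 0.26, edgeR adjusted p = 0.0254), a call lost without model 3 and model 4 (adjusted p = 0.0576), without control 3 (0.0524) and without control 6 (0.0925). Mapk3, which encodes an ERK enzyme, and Mapk8 and Mapk9, which encode JNK enzymes, had log2 fold changes of -0.02, -0.44 and 0.08 and none of these 3 passed. They and Mapk10, which had no reads, were named after their values were seen.

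Serum response factor (Srf) and its partners, which switch on Fos through the CArG box, gave 3 higher, 1 lower and 2 without a call of 6, too few to read against the 26.6% and 21.3% of all genes. Srf rose by a log2 fold change of 2.08 (SE 0.35), from 5.57 ± 1.92 to 23.8 ± 14.3 CPM. Its coactivator Mrtfa rose by 1.26 (SE 0.33) and the ternary complex factor Elk1 by 0.91 (SE 0.23). Elk3, known as a repressing member of that family, fell by 1.05 on the log2 scale (SE 0.28).

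Among other bZIP proteins that pair or compete with AP-1, 11 of 17 tested were higher, 1 was lower and 5 passed in neither direction (median 1.40), beside 26.6% and 21.3% of all genes; with library totals 9 were higher and 1 lower. Batf2, an interferon-induced relative of Batf, rose by 4.84 on the log2 scale (SE 0.31), Nfe2, a partner of small MAF proteins in blood cells, by 4.24 (SE 0.31), and Jdp2, a repressor that pairs with Jun, by 4.19 (SE 0.30). Batf2, Nfe2 and Jdp2 averaged 0.309, 0.690 and 0.762 CPM in the controls and could pass the low-count filter only through the model. Such genes could hardly be called lower, so the count and median of this list are given as a description. Maf, a large MAF protein, was the member of this list that fell, with control libraries at 18.8 ± 3.48 CPM and model libraries at 9.37 ± 1.75 CPM (log2 fold change -1.01, SE 0.19).

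Of the regulators of JUN protein, which act on its stability, 1 of 7 was higher, 2 were lower and 4 passed in neither direction (median -0.32). These are too few to read against the 26.6% and 21.3% of all genes, and with a length and GC offset 5 were lower. Trib1, a pseudokinase that recruits the ubiquitin ligase COP1, rose by 3.53 on the log2 scale (SE 0.49), and its model libraries ran from 63.3 to 524 CPM. Det1, an adaptor of the same ligase, fell by 1.42 on the log2 scale (SE 0.23). Cops5, also named Jab1, had a log2 fold change of -0.52 (SE 0.19, edgeR adjusted p = 0.0286), and the call was lost in 9 of 24 alternatives with adjusted p between 0.0507 and 0.160. These left out control 1, control 2, control 4, model 6, model 7, model 3 with model 4, or model 7 with model 8, or used no low-count filter or the replicate block.

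Other immediate early genes rose with the members: all 17 tested were higher, beside 26.6% of all genes, with a median log2 fold change of 4.42. Ier3, an apoptosis regulator, rose by 7.41 on the log2 scale (SE 0.32), Egr2, a zinc finger factor, by 7.20 (SE 0.48) and Nr4a1, an orphan nuclear receptor, by 7.13 (SE 0.45). Ier3, Egr2 and Nr4a1 were under 0.91 CPM in every control and could pass the low-count filter only through the model. Such genes could hardly be called lower, so the count and median are given as a description. Of the 17, 0 had model 7 and model 8 as their highest libraries (21.9% of all genes) and 7 were lowest in model 8 (15.8% of all genes). Nr4a1 and Dusp1, a phosphatase that switches off MAP kinases, were highest in model 3 and model 4 as Fos and Fosb were (6.25% of all genes).

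Of 22 genes that textbooks give as AP-1 targets, 21 were tested, 19 were higher and 0 lower, beside 26.6% and 21.3% of all genes. The targets' median log2 fold change was 6.55. Ptgs2, the inducible cyclooxygenase, and Lif, a cytokine of the interleukin-6 family, had no control reads; Ptgs2 was higher by at least 661-fold and Lif by at least 260-fold. Nos2, the inducible nitric oxide synthase, was at 0.0182 ± 0.0447 CPM in the controls and 26.3 ± 21.9 CPM in the model, a log2 fold change of 9.51 (SE 0.88). Ptgs2, Lif and Nos2 could pass the low-count filter only through the model, so the targets' count and median are given as a description. Cyclin D1 (Ccnd1) and urokinase (Plau) did not pass, with log2 fold changes of -0.16 (SE 0.27) and 0.79 (SE 0.32, edgeR adjusted p = 0.0522). These genes answer to other factors too, and binding of AP-1 was not measured.

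Of the 21 targets, 9 had model 7 and model 8 as their highest libraries, as Fosl1 did, beside 21.9% of all genes; among them were Il11, Plau, Cdkn1a, Tnf, Lif, Plaur, Mmp12 and Ccnd1. So did 9 of the 19 MAP kinase genes and 4 of the 6 genes of the serum response factor group. This position was looked for after Fosl1 had been seen, and it is a description of these libraries.

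**Figure D5:**
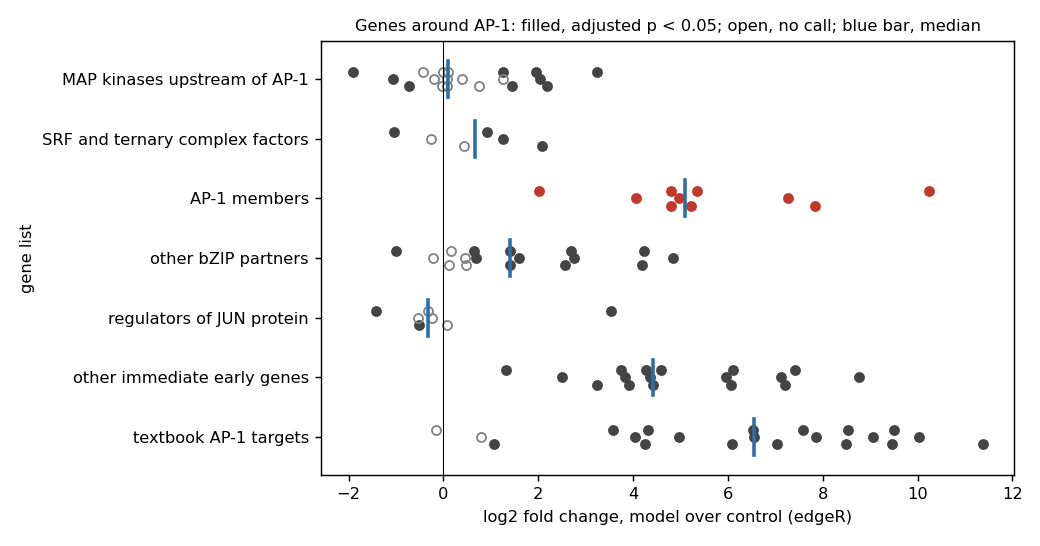
Log2 fold change, model over control, of the tested genes of each list around AP-1; filled points passed at an adjusted p under 0.05, open points did not, members are in red, and the blue bar is the list's median. The members, the other immediate early genes and the textbook targets lie mostly above 3, and the MAP kinases and the regulators of JUN protein spread around 0.

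Markers of infiltrating cells moved with the same groups. All 9 neutrophil markers were higher, beside 26.6% of all genes. Their summed level was 1224 to 2857 CPM in the model against 3.79 to 16.7 CPM in the controls. Ly6g was at 0 in every control and could pass the low-count filter only through the model. With so low a control sum, scarce markers of this list could hardly be called lower, so the count is given as a description. S100a8 and S100a9 rose by 7.81 (SE 0.52) and 7.78 (SE 0.58) on the log2 scale. Of 7 monocyte markers 6 were higher, beside the same 26.6%, and the sum of the 7 was 737 to 1376 CPM against 544 to 823 CPM. Most of that sum is F10, a coagulation factor that hepatocytes also make (492 ± 116 CPM in model, 471 ± 55.2 CPM in control, no call), and Lyz2 (338 ± 91.8 and 193 ± 84.1 CPM), so it says little of monocytes. Of the scarcer markers, Ccr2 rose by 2.79 (SE 0.34) and Ly6c2 by 5.47 (SE 0.32). Chil3 and Vcan, at or under 0.772 CPM in every control, had the same limit as Ly6g, so the monocyte count is a description too.

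Of 6 Kupffer cell markers 2 were higher and 2 lower, too few to read against the shares of all genes (26.6% and 21.3%). Only 1 was lower with the replicate block, without control 6, and without model 7 and model 8. The sums overlapped at 195 to 431 CPM in model and 187 to 281 CPM in control. A large part of the model sum is Marco, at 118 ± 24.0 CPM in model and 5.89 ± 4.12 CPM in control, so the sum says little of the other markers. Marco rose by 4.30 (SE 0.37) and Timd4 by 1.75 (SE 0.26) on the log2 scale, and Cd5l fell by 0.61 (SE 0.21). Clec4f had a log2 fold change of -0.10 (SE 0.25) and Vsig4 fell by 1.31 on the log2 scale (SE 0.27). The neutrophil sum was lowest in model 7, the library with the most Fosl1 reads. In model 8, the next highest for Fosl1, it was 1514 CPM, near the model median of 1581 CPM. Model 7 was also the lowest model library for the monocyte, T and NK cell, B cell and dendritic cell sums. The part of these cells in the rise of the AP-1 genes was not tested.

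Markers of resident cells were called in both directions, beside 26.6% higher and 21.3% lower of all genes. Lists of 4 to 7 genes are too short to read against those shares. Of 5 endothelial markers 2 were higher and 2 lower, with Stab2 at a log2 fold change of 0.13 (SE 0.31; -0.15 with library totals) and Clec4g falling by 1.80 on the log2 scale (SE 0.34). Of 5 stellate cell markers 4 were higher (2 with library totals), Reln by 1.26 (SE 0.37; adjusted p = 0.0519 with library totals), while Lrat, the enzyme that stores vitamin A, fell by 2.67 on the log2 scale (SE 0.34). All 4 bile duct markers tested were higher, Krt19 by 2.69 (SE 0.41) and Krt7 by 2.62 (SE 0.34). Of 7 hepatocyte markers 3 were higher and 0 lower (2 and 0 with library totals); Alb had a log2 fold change of 0.83 (SE 0.21; adjusted p = 0.0693 with library totals) and Apoa1 of -0.24 (SE 0.28).

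Lymphoid and dendritic markers were at or under a few CPM. Too few of them were tested to read their counts against the 26.6% higher and 21.3% lower of all genes. All 3 T and NK cell markers tested were higher (2 with library totals or upper-quartile factors, or without control 1, control 2, control 4, model 2 or model 5), with Cd3g at 1.23 on the log2 scale (SE 0.33) and Cd3e at 0.769 ± 0.211 CPM in model against 0.266 ± 0.0939 CPM in control, too low to test. Of 3 B cell markers tested 0 passed by edgeR (1 lower with library totals or the length and GC offset, and 1 higher without model 7 and model 8), with Ms4a1 at a log2 fold change of -0.13 (SE 0.38). Of the dendritic cell markers 1 could be tested and was higher; Flt3 and Xcr1 were at 0.582 and 0.154 CPM in model and 0.270 and 0.333 CPM in control.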

How the data were processed

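The authors deposited raw read counts per gene, 1 file per library; per the submitters' processing notes reads were aligned with HISAT2 to GRCm39, and for the aligner version, counter, strand setting and annotation nothing is given in the sources used here. Summary lines at the end of the deposited files, which name no gene (27.4% to 45.6% of entries), were left out. Genes were kept with filterByExpr and tested with edgeR 4.0.16 in R 4.3.3 (TMM factors, robust quasi-likelihood fit, group as the only term, Benjamini-Hochberg adjustment over 12915 genes, threshold 0.05), after the test had been run on simulated data. The SE was taken as the size of the log2 fold change over the square root of F. A lower bound sets the model mean against 3 counts over all controls (0.0401 CPM), which covers counting error only.

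Exonic lengths, GC content and overlaps came from a GENCODE annotation of GRCm38 and promoters from RefSeq (GRCm38.p6), matched by identifier or symbol. The members and the 16 other lists (6 of pathways, 10 of cell types) were chosen with earlier results of these data known. Named were all members, up to 3 called genes a direction of each pathway list averaging 5 CPM or more in either group, and the first 2 markers of each cell type; other names, among them the targets listed by library position, were chosen after their values were seen. A few list genes are not reported here by name. Of 161 list genes, 1 had no row. Alternatives were other scalings, no filter, DESeq2 1.42.0, limma 3.58.1 (voom), a length and GC offset, a replicate block and left-out libraries.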

Additional observations from a re-analysis of the deposited data

Results flagged for a closer look

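In control 5, Junb made up 37.3% of JUN family RNA per kb, apart from the other 5 controls at 22.1% to 27.2%, a gap larger than the critical value for 6 libraries. It is still below the lowest model library (43.5%). There were 33 groups of values examined in this way, and chance flags about 1 in 20.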

How the results depend on the processing

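All 10 members were called higher in each of 24 alternatives, with log2 fold changes of 1.76 to 2.25 for Jund, 3.80 to 8.05 for the other 8 read in the controls and 7.47 to 10.51 for Fosl1; the largest adjusted p was 0.00241, for Fosl1 with no low-count filter. Over all genes, 3437 were higher and 2751 lower, 55.5% of calls higher, with leave-one-out ranges of 2975 to 3983 and 2452 to 2809. With a length and GC offset 4181 were lower and 42.2% of calls were higher, and library totals and upper-quartile factors gave 39.0% and 46.0%, moving the median log2 fold change of all genes to -0.18, -0.23 and -0.14. With a pseudocount of 1, Fosb over Fosl2 turned to -0.13 and Fosl1 over Fosl2 fell to 1.56. Of genes without a call, Ms4a1 changed sign without model 7 and model 8 (0.15) and ran from -0.32 to 0.22 (positive without control 1) when single libraries were left out. Clec4f changed sign without model 7 and model 8 (0.17) and ran from -0.21 to 0.0076 (positive without model 8). Stab2 changed sign with library totals (-0.15), upper-quartile factors (-0.011), the length and GC offset (-0.18) and without model 3 and model 4 (-0.013), and ran from -0.10 to 0.43 (negative without model 2). The causes were not tested. Alb and Reln lost their call with library totals (0.56 and 0.97).

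Samples of the 2 groups that share a number were not paired by the labels, and their deviations correlated between -0.53 and 0.57 over the 6 shared numbers, with 0 libraries closest to their own number. The replicate block covers numbers 1 to 6 and so also drops model 7 and model 8. It gave 2949 genes higher and 2207 lower, against 3198 and 2651 when those libraries were only left out. All 10 members stayed called in both fits, at similar values (Fos 7.38 and 7.35, Jun 5.52 and 5.47, Jund 1.83 and 1.93, Fosl1 8.84 and 8.80 with the block and without it). In the block Cops5 had an adjusted p of 0.160, Ms4a1 0.21 and Clec4f 0.17 on the log2 scale; without the block but with the same libraries dropped, Cops5 had 0.0805 and Ms4a1 and Clec4f had the same sign as in the block. Depth limits Fosb and Fos in the controls, with 8 and 26 reads in all.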

Other observations

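Of 8901 genes that averaged 5 CPM or more in the model, those whose log2 CPM followed Atf3 most closely across the 8 model libraries were Chka, a choline kinase (r = 0.98), Fbxo34, an F-box protein (0.98), and Ccng2, cyclin G2 (0.98); 69 genes had r over 0.9. For Fos they were Ankrd16 (0.96), Gramd1a, a carrier of cholesterol (0.96), and the nuclear long noncoding RNA Malat1 (0.95), and 11 genes had r over 0.9. These are the highest of many correlations over 8 libraries and are given as a description.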
